A study of Sus scrofa with 226 samples.

Results

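Sensory neurons of the pig dorsal root ganglion that express OSMR, the oncostatin M receptor, were compared between younger and older animals. A neuron counted as OSMR-positive when OSMR reached a CPM of 50, where CPM is its count scaled to a cell total of 1000000. This held for 66 neurons, from all 10 animals, and the 160 others stayed below. The comparison used 29 OSMR-positive neurons of 4 younger animals, aged 11 to 14 weeks, and 28 of 4 older animals, aged 17 to 20 weeks. The remaining 9 came from 2 animals of 15 weeks and are shown beside the others but not fitted.

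All animals were wild type, and each neuron was cultured for 1, 2 or 3 days, recorded with a patch pipette, drawn up whole and sequenced with Smart-Seq2, a method that amplifies full-length cDNA of one cell. The study set out to link electrical behaviour with gene expression in pig sensory neurons and to find marker genes of C-fibres that do not respond to touch. The younger animals were animal 1 (11 weeks), animal 2 (11 weeks), animal 3 (12 weeks) and animal 4 (14 weeks). The older animals were animal 7 (18 weeks), animal 8 (20 weeks), animal 9 (17 weeks) and animal 10 (18 weeks), and animals 5 and 6 were 15 weeks old. The recorded body weight, for which no unit is stated, ran from 28 to 42 in the younger group, was 51 at 15 weeks, and ran from 56 to 74 in the older group, so that age and weight went together. No agent or genetic change separated the groups.

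OSMR pairs with IL31RA to form the receptor for interleukin 31, a cytokine of itch, and with IL6ST (gp130) to form a receptor for oncostatin M. Both receptors signal through JAK kinases and STAT transcription factors. In sensory ganglia OSMR and IL31RA mark a class of unmyelinated C-fibres that also make the peptides somatostatin (SST) and natriuretic peptide B (NPPB), and this class is known for its part in itch.

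OSMR chose the cells, so its values are given without a test. Its CPM in single cells ran from 74.2 over a median of 300.6 to 778 in the younger group, and from 50.3 over a median of 287 to 977 in the older group. The 15-week cells ran from 89.95 over a median of 214.9 to 686. The last cell inside the threshold had 50.3 CPM and the first outside it 47.9 CPM.

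The cells carried the other markers of the class. IL31RA had reads in 63 of 66 cells with a median of 665 CPM, against a median of 4.08 CPM in the 160 other neurons. SST had reads in 63 of 66 cells with a median of 152.8 CPM, against 6.39 CPM in the other neurons. NPPB had reads in all 66, but also in 95% of the other neurons, with medians of 874.4 and 235.0 CPM. IL31RA and SST had reads in 67.5% and 73.1% of the other neurons. The cells were therefore set apart by the level of these markers more than by the presence of reads. IL31RA and SST were not used to choose the cells, but 28 of 29 younger, 24 of 28 older and 8 of 9 cells of 15 weeks reached 50 CPM of IL31RA, so a few OSMR-positive cells lacked the second receptor chain at that level.

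**Figure D1:**
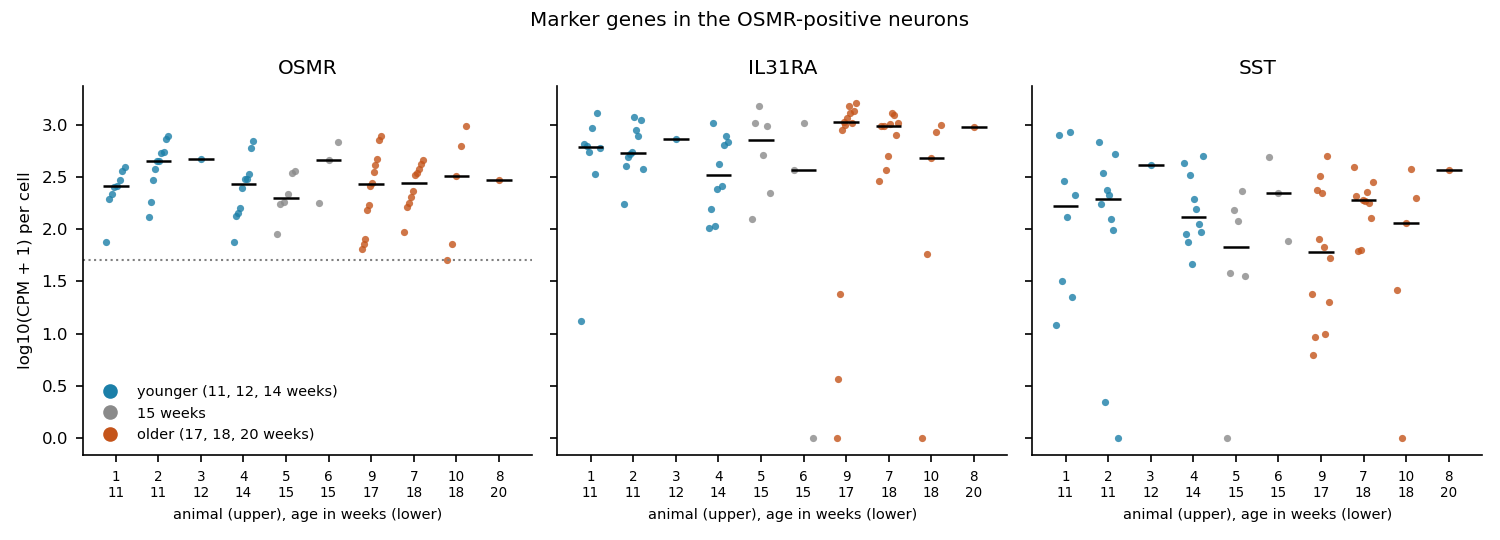
Levels of OSMR, IL31RA and SST in each OSMR-positive neuron, as log10(CPM + 1), by animal and age in weeks; each point is 1 cell, bars are medians per animal, and the dotted line in the OSMR panel is the threshold of 50 CPM that chose the cells. IL31RA and SST had reads in 63 of 66 cells each, and the cells of the younger and older groups overlap in all 3 panels.

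OSMR-positive neurons were found at every age. In the younger group they made up 8 of 13 neurons in animal 1 (61.5%, exact binomial 95% interval 31.6 to 86.1), 10 of 25 in animal 2 (40.0%), 1 of 11 in animal 3 (9.09%) and 10 of 35 in animal 4 (28.6%). In the older group they made up 10 of 30 in animal 7 (33.3%), 1 of 6 in animal 8 (16.7%), 12 of 34 in animal 9 (35.3%) and 5 of 16 in animal 10 (31.2%, 11.0 to 58.7). At 15 weeks they made up 6 of 25 in animal 5 and 3 of 31 in animal 6 (9.68%). The highest and the lowest share both belonged to the younger group, whose mean over animals was 34.8% ± 21.9 against 29.1% ± 8.48 in the older group (SD, n = 4 each). Neurons were picked one by one for recording, so a share describes the cells picked and not the ganglion.

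Depth differed between the groups and limits what can be seen in the older one. The median total per OSMR-positive cell was 1301060 estimated counts in the younger group, 536780 in the older and 407905 at 15 weeks, while the median number of genes with a read was 13727, 14080.5 and 13107. The median share of mitochondrial genes in a cell was 3.52% in the younger group, 5.25% in the older and 9.66% at 15 weeks. The numbers in the cells' labels, whose meaning is not given, fell into 4 blocks separated by gaps of more than 20, and 0 of these blocks held both younger and older cells, so that age and any difference between blocks cannot be told apart. Blocks 1 and 2 held animals 1 to 4, and blocks 3 and 4 held animals 5 to 10. The 15-week animals 5 and 6 were in block 3, which also held cells of animals 7 and 8. The younger cells were 17, 7 and 5 at 1, 2 and 3 days in culture, and the older 11, 14 and 3.

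The first question was which genes differ between the OSMR-positive neurons of younger and older animals. Counts were summed over the OSMR-positive cells of each animal with at least 2 of them, which gave animals 1, 2 and 4 against animals 7, 9 and 10. The animal was the replicate. Animals 3 and 8 had 1 such cell each and are shown only. Levels below are CPM of these sums after TMM scaling, and differences are log2 values, older minus younger, ± SE from edgeR's quasi-likelihood test with Benjamini-Hochberg adjustment over all genes tested.

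Few genes passed. Of 17686 genes tested, 3 were higher in the older animals (0.017%) and 1 was lower (0.00565%). The unadjusted p was below 0.05 for 740 genes, and the median difference over all genes was -0.01. The values of the 3 older animals lay all above those of the 3 younger for 852 genes (4.82%) and all below for 807 (4.56%).

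SHISAL1 (ENSSSCG00000039522), which encodes a shisa-like membrane protein, was higher in the older animals. Its level was 15.0 CPM in animal 1, 13.2 in animal 2, 1.61 in animal 3 and 23.6 in animal 4. It was 287 CPM in animal 7, 112.4 in animal 8, 196.2 in animal 9 and 279 in animal 10. At 15 weeks it was 351 CPM in animal 5 and 228 in animal 6. The 4 younger animals were low and the other 6 high, with no overlap, and the 15-week animals lay with the older ones. This is also the split of blocks 1 and 2 from blocks 3 and 4 of the cell labels, so age and block cannot be told apart here. The difference was 3.92 ± 0.38 (15.2-fold, adjusted p = 0.000842). It was also seen cell by cell: all 28 older cells had at least 128.1 CPM, while the younger cells had a median of 8.34 CPM and a highest value of 184.6.

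A gene without a symbol, ENSSSCG00000043168, rose as well. Its level was 1.66, 6.995, 2.57 and 2.35 CPM in animals 1 to 4 and 142.4, 66.1, 166.2 and 103.9 CPM in animals 7 to 10. At 15 weeks it was 164.1 and 188.98 CPM in animals 5 and 6. Again animals 1 to 4 were low and animals 5 to 10 high. The difference was 5.29 ± 0.55 (39.2-fold, adjusted p = 0.000924), and without animal 1 the adjusted p was 0.0568.

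ZDHHC7 (ENSSSCG00000002667), a palmitoyltransferase that attaches fatty acids to proteins, fell. Its level was 232, 264, 222.05 and 287 CPM in animals 1 to 4 and 58.7, 34.4, 55.9 and 61.2 CPM in animals 7 to 10. At 15 weeks it was 70.1 and 61.6 CPM in animals 5 and 6. The split was the same with the direction turned, animals 1 to 4 high and animals 5 to 10 low. The difference was -2.10 ± 0.31 (4.29-fold lower, adjusted p = 0.0382). This call was lost when any 1 of the 6 animals was left out, with adjusted p from 0.0558 to 0.560, while the difference stayed between -2.21 and -2.02. The ZDHHC7 call was also lost with mean day in culture as a covariate (adjusted p = 0.149) and with OSMR of at least 25 CPM (0.0604). It was lost as well with a slope per week (0.546) and among cells at 1 day in culture (0.590), where animal 10 had no cell.

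LAPTM5 (ENSSSCG00000025034), a lysosomal membrane protein of blood cells and macrophages, was the third gene that rose, and its counts came from few cells. Its level was 0 in animals 1 to 3 and 0.0452 CPM in animal 4, 6.47 and 0 CPM in animals 5 and 6, and 3.61, 10.6, 16.9 and 56.95 CPM in animals 7 to 10. In the fitted animals this was 1 count in the younger group and 263 in the older, a ratio of 736 in CPM with an exact 95% counting interval of 130.9 to 29171 that covers counting error only. The adjusted p was 0.0129, and the fitted difference of 9.50 ± 1.26 depends on the prior count. Of the 263 counts, 247 (93.9%) came from 5 older cells that also held many reads of macrophage or endothelial genes, described further on. Without those cells LAPTM5 no longer passed the filter on low counts. Its adjusted p was 0.804 without animal 1, 0.302 without animal 4 and 0.0599 without animal 10.

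**Figure D2:**
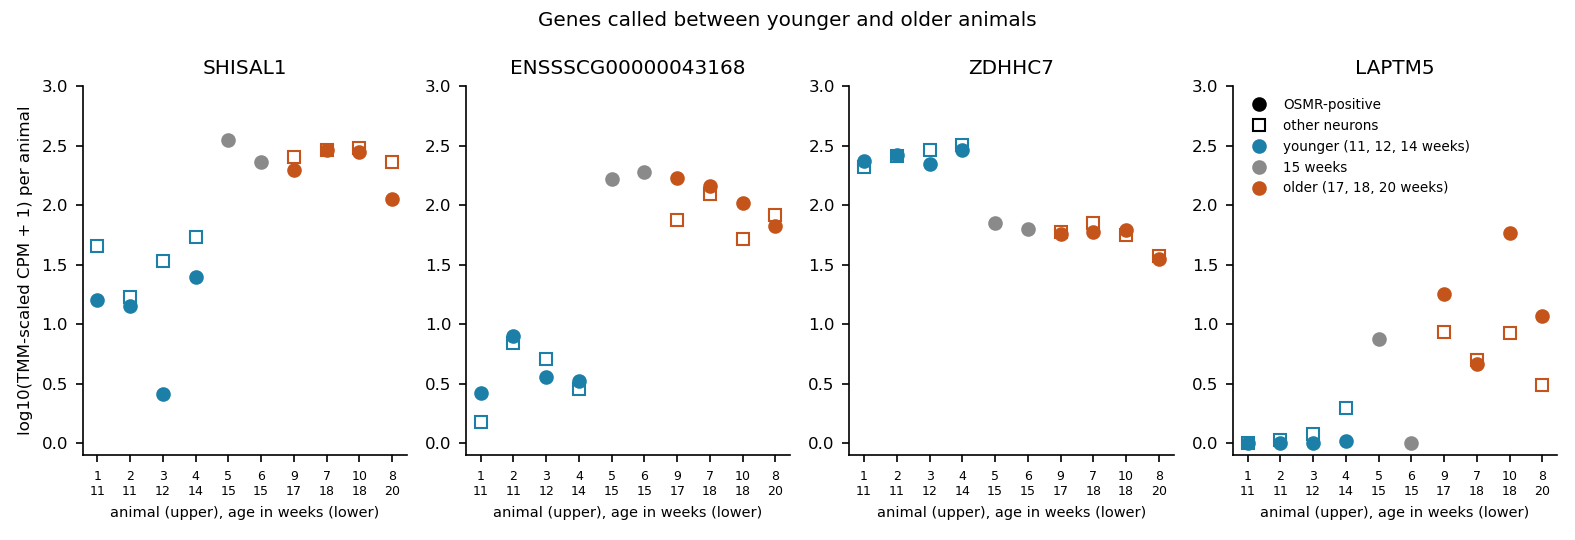
Level of the 4 called genes in each animal, as log10(TMM-scaled CPM + 1), by animal and age in weeks, with filled circles for the OSMR-positive neurons and open squares for the other neurons of the younger and older animals. For SHISAL1, ENSSSCG00000043168 and ZDHHC7 the OSMR-positive neurons of animals 1 to 4 lie apart from those of animals 5 to 10, the other neurons divide in the same way, and LAPTM5 is at or near 0 in the OSMR-positive neurons of animals 1 to 4.

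Leaving out 1 animal also moved the number of called genes, to 1 without animal 1, 6 without animal 2, 2 without animal 4, 6 without animal 7, 4 without animal 9 and 2 without animal 10. SHISAL1 was the gene that passed in each of these 6 fits. Among cells at 1 day in culture, 0 genes passed in edgeR, with 614 at an unadjusted p under 0.05, and SHISAL1 differed by 3.87 (adjusted p = 0.165). That fit held animals 7 and 9 alone in the older group, so the smaller number of animals and the day in culture cannot be told apart.

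SHISAL1, ENSSSCG00000043168 and ZDHHC7 also passed in the neurons below the OSMR threshold. In those neurons of the 4 younger and 4 older animals, 3 of 18925 genes passed in edgeR (0.0159%), and they were these same 3. The level of SHISAL1 in the other neurons was 44.5, 16.04, 32.97 and 52.8 CPM in animals 1 to 4 and 289.5, 231, 253 and 302 CPM in animals 7 to 10, a difference of 2.92 ± 0.33 (adjusted p = 0.0116). ENSSSCG00000043168 differed by 4.74 ± 0.60 (adjusted p = 0.0245) and ZDHHC7 by -2.25 ± 0.24 (adjusted p = 0.0116) in the other neurons. LAPTM5 differed by 3.92 ± 0.86 there, which did not pass (adjusted p = 0.383).

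A second model asked whether any gene's difference with age itself differed between OSMR-positive and other neurons of the same animals. Of 20337 genes tested, 0 passed in edgeR (0%), with 809 at an unadjusted p under 0.05. For SHISAL1 the difference was 0.88 ± 0.37 greater in the OSMR-positive neurons (adjusted p = 0.995), for ENSSSCG00000043168 0.30 ± 0.47 and for ZDHHC7 -0.03 ± 0.30. Among the better expressed genes, only those whose gap between neuron kinds did not overlap between younger and older animals were named. The smallest p in each direction among them belonged to NEDD9, a scaffold protein of cell adhesion, and DDIT4, a stress-induced inhibitor of mTOR. The NEDD9 difference was 3.41 ± 0.70 greater and the DDIT4 difference 2.23 ± 0.46 smaller in the OSMR-positive neurons (adjusted p = 0.995 for each in edgeR). A further 5 genes in the first direction were CAV2 (1.60 ± 0.40), MSL2 (1.49 ± 0.38), SMAD1 (1.48 ± 0.41), DCBLD2 (1.51 ± 0.42) and DENND4A (2.17 ± 0.61), and in the second WDR74 (-2.71 ± 0.60), ARPC1B (-1.62 ± 0.39), PNP (-1.60 ± 0.42), OGN (-2.30 ± 0.61) and CREB3 (-1.38 ± 0.37), and none of them passed.

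Neither IL31RA nor IL6ST differed by an amount that passed the test. IL31RA was at 846, 685, 780.2 and 496 CPM in animals 1 to 4, at 792 and 699 CPM in animals 5 and 6, and at 912, 824, 781 and 406 CPM in animals 7 to 10. The groups overlapped, and the difference was 0.08 ± 0.35 (adjusted p = 0.980). In single cells the median of IL31RA was 553 CPM in the younger and 973 CPM in the older group. The sign of its difference turned, to -0.50, with limma, a linear model, on the mean over cells of log2(CPM + 1). IL6ST, the shared chain of the oncostatin M receptor, was at 28.6, 24.6, 39.2 and 31.1 CPM in animals 1 to 4, at 121.9 and 26.5 CPM in animals 5 and 6, and at 34.5, 25.1, 54.2 and 59.6 CPM in animals 7 to 10. The 3 fitted older animals lay above the 3 fitted younger, but animal 8 did not, and the difference of 0.87 ± 0.39 did not pass (adjusted p = 0.965). OSMR was at 371, 439, 501 and 395 CPM in animals 1 to 4, at 232 and 386 CPM in animals 5 and 6, and at 292, 260.5, 260.0 and 349 CPM in animals 7 to 10, which is a description since OSMR chose the cells.

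Downstream of the receptors, 28 of 35 listed genes of oncostatin M and interleukin 31 signalling other than OSMR could be tested and 0 passed. Of these 11 had a positive and 17 a negative difference, with a median of -0.15 against -0.01 over all genes. JAK1, the kinase bound to both receptors, differed by -0.31 ± 0.35, with 733 to 1700.0 CPM in the older and 1203 to 1602 CPM in the younger animals. STAT3, the main transcription factor of the pathway, was at 57.8 to 157.3 CPM in the younger and 80.7 to 144.04 CPM in the older animals. SOCS3, an inhibitor that the pathway itself induces, stayed below 6 CPM in the 3 older animals and below 4 CPM in the younger.

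The peptides SST, NPPB and TAC1 had negative differences, and none of them passed. SST was at 431, 241, 438 and 251 CPM in animals 1 to 4, at 76.96 and 349 CPM in animals 5 and 6, and at 152.7, 319, 113.7 and 123.4 CPM in animals 7 to 10. The 3 fitted older animals lay below all younger animals, while the single cell of animal 8 lay within the younger range. The difference was -1.21 ± 0.34 (adjusted p = 0.887). In single cells the gap was small, with a median of 173.4 CPM in the younger and 152.9 CPM in the older group. The SST difference was -0.66 with limma on the mean over cells of log2(CPM + 1). NPPB was at 1445, 838, 1037 and 1287 CPM in animals 1 to 4 and at 935, 1109, 921 and 584 CPM in animals 7 to 10, a difference of -0.51 ± 0.33. TAC1, which encodes substance P, was at 10187, 7457, 7559 and 7629.9 CPM in animals 1 to 4 and at 7213, 6609, 5698 and 4319 CPM in animals 7 to 10, a difference of -0.51 ± 0.32 (adjusted p = 0.965 for both).

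The marker list of the class, taken without OSMR, held no call in edgeR. Of 18 such markers 16 could be tested, 4 had a positive and 12 a negative difference, and the median was -0.35. For 3 of the 16, SST, OTOA and NTS, the older animals lay all below the younger (18.75%, against 4.56% of all genes). The share of all genes was not matched for level, on which the direction of differences depended, as described further on. NTS, which encodes the peptide neurotensin, had the greatest difference on the list, -6.94 ± 1.24 (adjusted p = 0.173), at 11.7, 1.83 and 13.3 CPM in animals 1, 2 and 4 against 0.139, 0 and 0 in animals 7, 9 and 10. These were 404 counts in the younger and 1 in the older group, a ratio of 144.4 in CPM with an exact 95% counting interval of 25.8 to 5718, and a single cell of animal 4 gave 61.9% of the younger NTS counts. NTS passed with DESeq2 (adjusted p = 0.00177), without a filter on low counts (4.56e-05) and without animal 2 (0.00970), while its difference was -1.85 with OSMR of at least 25 CPM (adjusted p = 0.998). The leukotriene receptor CYSLTR2 differed by -0.38 ± 0.41, the G protein subunit GNA14 by -0.22 ± 0.35 and the heat and capsaicin channel TRPV1 by 0.06 ± 0.33.

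**Figure D3:**
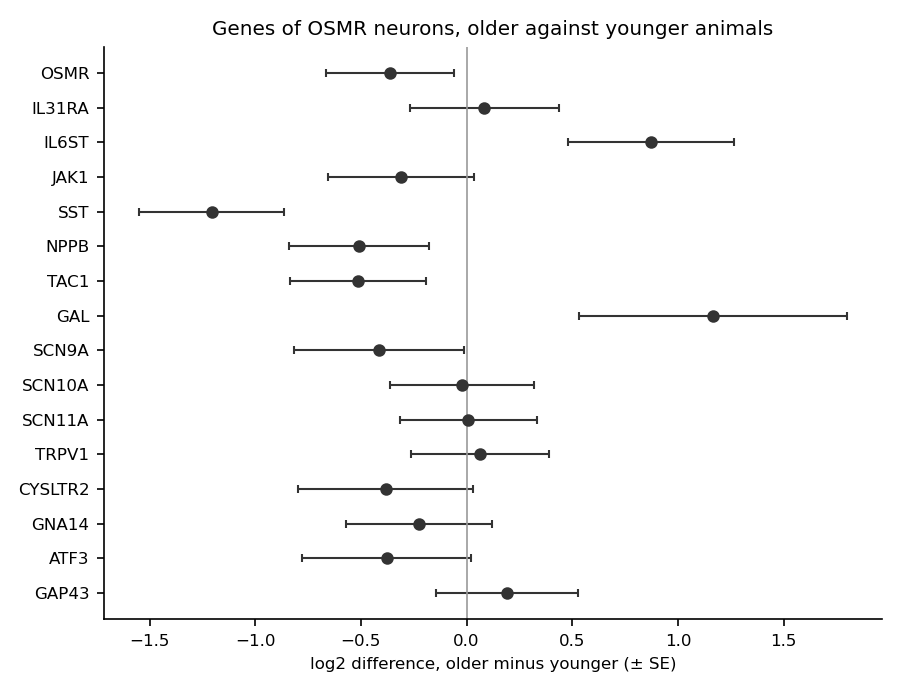
Differences between older and younger animals on the log2 scale, ± SE, for marker, receptor, channel and injury genes of OSMR-positive neurons; values right of 0 are higher in the older animals. OSMR, which chose the cells, is shown for description only, and none of the other genes plotted passed the test.

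Receptors and ligand targets of itch held no call. Of 32 listed genes 19 could be tested and 0 passed, with 11 positive and 8 negative differences and a median of 0.04. Without a filter on low counts 1 of 26 passed, lower, in a fit that called a larger share of all genes. That share is given under the dependence on processing, and every list count without a filter belongs to that fit. HRH1, the histamine receptor, was at 47.1 to 66.5 CPM in the 3 younger animals and 21.2 to 63.8 CPM in the 3 older. IL4R and IL13RA1, receptor chains for interleukins of allergic itch, differed by -0.97 ± 0.82 and -0.31 ± 0.50.

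Voltage-gated sodium channels of pain fibres were expressed at every age without a difference that passed. SCN9A (NaV1.7) was at 449.6, 206.7, 503 and 356 CPM in animals 1 to 4 and at 394, 278, 209.9 and 140.8 CPM in animals 7 to 10, a difference of -0.41 ± 0.40. SCN10A (NaV1.8) differed by -0.02 ± 0.34 and SCN11A (NaV1.9) by 0.01 ± 0.32, and the groups overlapped for each. Of 12 sodium channel genes tested 10 had a negative difference, and of 36 potassium channel genes 24 did, with medians of -0.36 and -0.31 and 0 calls. Among the 36 potassium channel genes 7 had all 3 older animals below the younger (19.4%, against 4.56% of all genes) and 1 had them above (2.78%, against 4.82%). Here too the shares of all genes were not matched for level. Without a filter on low counts, where a larger share of all genes was called, 2 potassium channel genes passed, both lower.

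Genes of nerve injury and growth, which culture itself can induce, did not pass either. ATF3, a transcription factor of injured neurons, was at 251, 91.7 and 213.2 CPM in animals 1, 2 and 4 and at 185.9, 94.2 and 136.6 CPM in animals 7, 9 and 10 (-0.38 ± 0.40). GAP43, a protein of growing axons, differed by 0.19 ± 0.33. GAL, the injury-induced peptide galanin, ran from 17.0 to 172.3 CPM in the 3 younger and from 106.3 to 316 CPM in the 3 older animals (1.17 ± 0.63, adjusted p = 0.965). The GAL difference was -0.12 among cells with OSMR of at least 100 CPM and 0.20 among those that also had at least 50 CPM of IL31RA. The list of axotomy and regeneration genes had 9 positive and 15 negative differences of 24, and the list of immature neuron and growth genes 6 and 19 of 25.

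Several lists of abundant genes leaned towards lower values in the older animals, with 0 calls in each. Of 57 nuclear genes of oxidative phosphorylation 53 had a negative difference, and for 21 the older animals lay all below the younger, against 4.56% of all genes. Of 45 ribosomal protein genes 44 had a negative difference and 18 lay all below. Of 35 genes of neuropeptide processing and vesicle release 27 were negative. Without a filter on low counts, where a larger share of all genes was called, 1 of that list passed as lower. Negative differences were also found for 18 of 20 heat shock protein genes and 24 of 29 neurofilament and axonal cytoskeleton genes. The medians ran from -0.48 for the ribosomal proteins to -0.28 for the neurofilaments.

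The same lean was found in abundant genes of any kind and moved with the processing. Of the 620 genes with a mean of at least 8 on the log2 CPM scale 94.7% had a negative difference, with a median of -0.39, whereas of the 6625 genes below 2 only 35.4% did, with a median of 0.32. When every sum was thinned to the total of the shallowest animal the share among the most abundant genes was 79.8%, with a median of -0.20. When each cell had the same weight within its animal it was 44.5%, with a median of 0.06, and the all-gene median became 0.31. The median was then -0.02 for oxidative phosphorylation, -0.00 for ribosomal proteins and -0.03 for sodium channels.

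**Figure D4:**
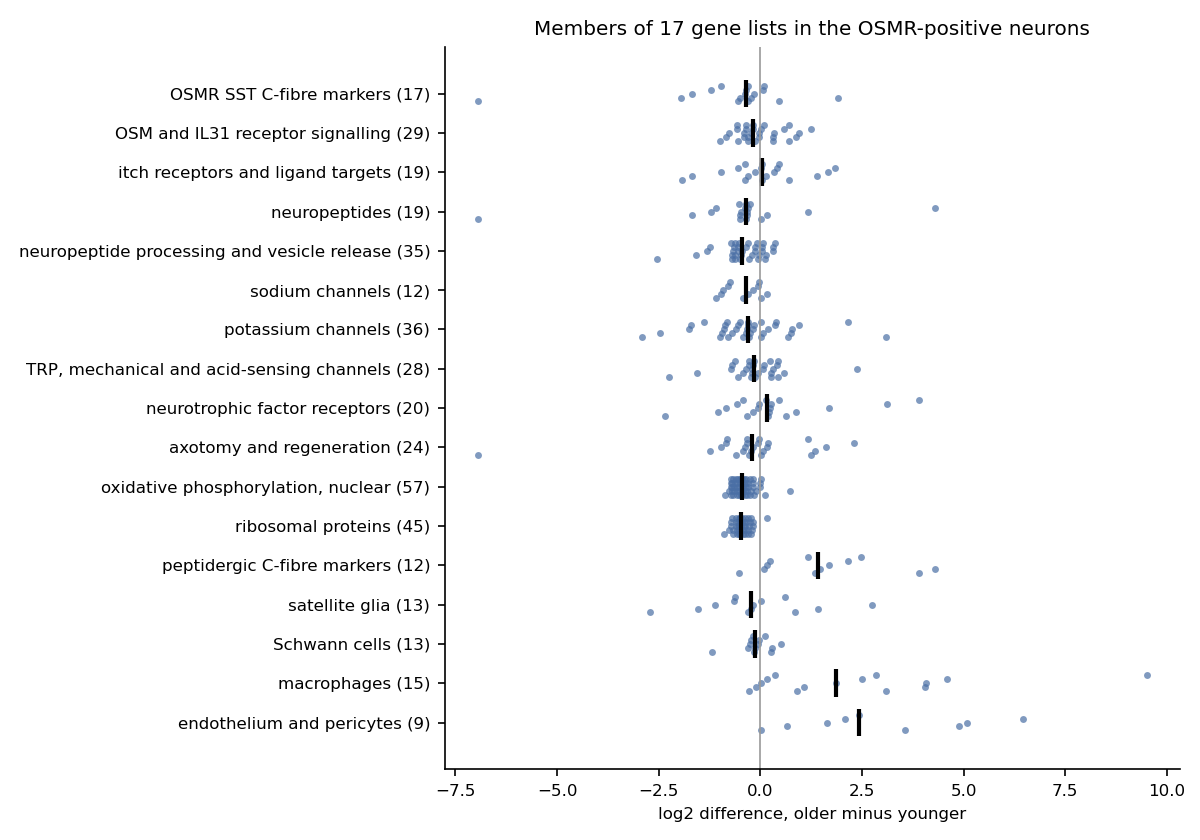
Differences between older and younger animals on the log2 scale for the tested members of 17 gene lists (points, with the number tested in brackets) and the median of each list (bar). The lists of macrophage and of endothelial and pericyte genes lie furthest right, with medians of 1.87 and 2.43, and the ribosomal and oxidative phosphorylation genes lie in narrow bands left of 0. The lists of class markers and of receptor signalling include OSMR, which chose the cells, as a point for description.

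Markers of other cell types were not evenly spread over the groups. Of 15 macrophage genes tested 13 had a positive difference, with a median of 1.87 and 1 call (LAPTM5), and of 9 endothelial and pericyte genes all 9 did, with a median of 2.43 and 0 calls. Without a filter on low counts, where a larger share of all genes was called, 7 genes of each list passed, all higher. The summed level of the 18 macrophage genes was 287 to 315 CPM in the 3 younger, 211.9 to 1453 in the 3 older and 549 to 668 in the 15-week animals. CX3CR1, a defining gene of resident macrophages, was at 0 in all of them. The summed level of the 14 endothelial and pericyte genes was 21.4 to 35.6 CPM in the 3 younger, 36.9 to 672 in the 3 older and 25.4 to 350.4 in the 15-week animals. ESAM, an endothelial adhesion protein, was at 0 in the younger.

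These reads sat in single cells. A summed level of at least 1000 CPM over either list was reached by 0 of 29 younger, 5 of 28 older and 3 of 9 15-week cells. The older ones were 1 cell of animal 7 (2421 CPM of endothelial and pericyte genes), 2 of animal 9 (6817 and 2194) and 2 of animal 10 (1999 and 7051 CPM of macrophage genes). In 4 of these 5 OSMR itself was between 71.6 and 93.7 CPM, close to the threshold, and in the remaining cell it was 629 CPM. One cell of animal 9 gave 92.2% of the older counts of CLDN5, an endothelial junction protein, and 55.4% of those of RGS5, a pericyte gene. How these reads came into the libraries was not tested.

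The fit was repeated without these cells, an alternative chosen after seeing the data. The median of the endothelial and pericyte list was then 0.22 and that of the macrophage list 0.68, and the RGS5 difference went from 5.08 to 0.26. The cells were left out for their levels of these same lists, so these falls were set by that choice and are no result. GRN, which encodes progranulin, and CTSC, a lysosomal protease, were named for a small p on the higher side among non-called genes whose groups did not overlap. Their differences of 1.62 ± 0.38 and 2.24 ± 0.61 came to 0.60 and 0.22. SHISAL1, ENSSSCG00000043168 and ZDHHC7 passed without these cells, at 3.96, 5.42 and -2.15, and were the 3 genes called. The same 3 were called among cells that also had at least 50 CPM of IL31RA. In sums over cells, fewer cells of a kind and less RNA per cell cannot be told apart.

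Markers of peptidergic C-fibres, another neuron class, also leaned towards the older animals, with 11 of 12 positive, a median of 1.41 and 0 calls. ADCYAP1, the peptide PACAP, was at 36.2, 5.81 and 7.91 CPM in animals 1, 2 and 4, at 7.37 in animal 7, and at 436 and 486 CPM in animals 9 and 10 (4.29 ± 1.06, adjusted p = 0.707). KIT, a receptor tyrosine kinase, was at 2.42, 5.49 and 10.9 CPM in animals 1, 2 and 4 and at 6.81, 147.6 and 117.1 CPM in animals 7, 9 and 10 (3.91 ± 0.85, adjusted p = 0.574). Both were low in animal 7, so the groups overlapped. A single cell of animal 9 gave 66.95% of the older ADCYAP1 counts, and its IL31RA was 0. The list's median was 1.47 without the macrophage- and endothelium-rich cells, 0.33 among cells that also had at least 50 CPM of IL31RA, and -0.20, with 4 of 12 positive, among cells with OSMR of at least 100 CPM. Without a filter on low counts, where a larger share of all genes was called, 3 genes of the list passed, all higher.

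The next genes did not pass and had the smallest p among better expressed genes whose fitted animals did not overlap between the groups. Their separation was set by this choice and is no result. The higher ones beside GRN and CTSC were STXBP5L, a tomosyn-like regulator of vesicle release (2.74 ± 0.61, adjusted p = 0.595), PDE4B, a cyclic AMP phosphodiesterase (1.86 ± 0.49) and SDC2, a heparan sulphate proteoglycan (2.61 ± 0.70). PDE4B was at 17.1, 5.27, 9.64 and 14.3 CPM in animals 1 to 4, at 15.7 and 6.34 CPM in animals 5 and 6, and at 49.2, 59.5, 39.1 and 40.6 CPM in animals 7 to 10. The PDE4B levels of both 15-week animals lay with the younger ones, unlike those of SHISAL1, ENSSSCG00000043168 and ZDHHC7, an example chosen after the values were seen. The lower ones were TMEM135 (-1.57 ± 0.36, adjusted p = 0.677), RGS7BP, an anchor of G protein regulators (-1.92 ± 0.46), LPIN1, a phosphatidate phosphatase (-1.66 ± 0.43), KCNV1, a silent potassium channel subunit (-2.47 ± 0.66) and MT1X, a metallothionein (-1.35 ± 0.36). TMEM135 was at 106.4, 125.3, 37.9 and 73.5 CPM in animals 1 to 4 and at 40.3, 22.5, 29.1 and 30.1 CPM in animals 7 to 10, so that the single cell of animal 3 lay among the older values.

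The last comparison asked whether the OSMR-positive neurons of younger and older animals differ in what was recorded from them. Values were averaged over the OSMR-positive cells of an animal, and 37 recorded columns had at least 2 cells in 3 younger and 3 older animals. The files state no units, and the columns are named as the authors named them. With 3 animals against 3 the exact two-sided permutation test of animal means cannot give a p below 0.1. The adjusted p was below 0.05 for 0 of the 37 columns (0%), as the design requires, and the groups did not overlap for 5 (13.5%). A column without overlap has that smallest p of 0.1, so a share near 0.1 would be found with no difference between the groups.

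Passive and size measures overlapped. Cell diameter was 40.2, 37.7 and 43.2 in animals 1, 2 and 4 and 45.2, 40.2 and 37.5 in animals 7, 9 and 10, with means of 40.3 ± 2.75 and 40.96 ± 3.87 (SD, n = 3 each; exact permutation p = 0.9). Slow capacitance (cslow) was 106.1 ± 13.1 against 98.2 ± 22.6 (exact p = 0.6, n = 3). Resting membrane potential (RMP) was -59.1 ± 5.44 against -57.7 ± 4.13 (exact p = 0.7, n = 3).

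Input resistance (input_res) was among the 5 columns without overlap. It was 0.117, 0.113 and 0.119 in animals 1, 2 and 4 and 0.137, 0.266 and 0.227 in animals 7, 9 and 10. The single cells of animals 3 and 8 had 0.074 and 0.052, below both groups, and animals 5 and 6 had 0.230 and 0.124. The means were 0.116 ± 0.00284 and 0.210 ± 0.0660 (SD, n = 3, exact permutation p = 0.1, adjusted p = 0.740). In animal 9 the 3 cells with OSMR below 100 CPM had 0.34, 1.5 and 0.4, and their IL31RA was 0, 2.65 and 23.1 CPM. Among cells with OSMR of at least 100 CPM the animal means were 0.116, 0.113 and 0.127 against 0.145, 0.105 and 0.255, so that the groups overlapped and the input_res difference was 0.0499 in place of 0.0935. Over all OSMR-positive cells the median was 0.110 in the younger and 0.0968 in the older group, opposite in direction to the means. A second column for the same quantity (Input_res_new) gave 0.126 ± 0.00925 and 0.210 ± 0.0660. Its means were 0.124, 0.118 and 0.136 in animals 1, 2 and 4, and the same as those of input_res in animals 3 and 5 to 10. The 2 columns thus differed from each other only in younger animals, and age and block cannot be told apart for recorded values either. Input_res_new is also among the 5 columns without overlap, so that input resistance is counted there more than once.

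Beside the 2 columns of input resistance, the non-overlapping columns were APD, AP_threshhold and Sinusscore_new, a score that is not defined. The column APD was 5.00, 4.33 and 4.49 in animals 1, 2 and 4 and 4.17, 3.72 and 3.04 in animals 7, 9 and 10, with means of 4.61 ± 0.352 and 3.64 ± 0.568 (exact p = 0.1, n = 3). The single cells of animals 3 and 8 had 3.601 and 3.51, both within the older range. The APD difference of -0.964 was -0.464 with medians over cells and -0.189 in cells at 1 day in culture, where animal 10 had no cell. Of the 5 columns, APD and AP_threshhold did not overlap among cells with OSMR of at least 100 CPM either. The APD means of those cells were 5.208, 4.327 and 4.543 in animals 1, 2 and 4 and 4.169, 4.304 and 2.968 in animals 7, 9 and 10. Animals 2 and 9 were thus nearly equal. With all OSMR-positive cells the threshold of the action potential (AP_threshhold) was -45.8 ± 0.325 against -43.7 ± 1.41. The column Sinusscore_new was 0.323 ± 0.0394 against 0.377 ± 0.00620 (exact permutation p = 0.1 for each of these columns, n = 3). For AP_threshhold the single cell of animal 3 had -40.6, above all older means, and that of animal 8 had -45.7, within the younger range. For Sinusscore_new the single cells of animals 3 and 8 had 0.833 and 0.476, both above the means of animals 7, 9 and 10. Rheobase, the smallest current that evoked a spike, overlapped at 196.3 ± 12.5 against 185.4 ± 42.1 (exact p = 0.7, n = 3).

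Following of repeated stimulation did not separate the groups. The value at 10 Hz was 18.5, 14.5 and 9 in animals 1, 2 and 4 and 11.5, 11.0 and 18.2 in animals 7, 9 and 10. At 50 Hz the means were 4.88 ± 1.19 and 7.39 ± 4.06, and at 100 Hz 2.70 ± 0.520 and 4.42 ± 2.11 (SD, n = 3, exact permutation p = 0.5 and 0.3). All 5 cells of animals 9 and 10 with OSMR below 100 CPM had 20 at 50 Hz, and 10 to 20 at 100 Hz. Among cells with OSMR of at least 100 CPM the 50 Hz means were 4.45 ± 1.30 and 4.11 ± 1.68, the difference turning to -0.341, and the 100 Hz means 2.49 ± 0.560 and 2.52 ± 1.03. Animal 10 had the highest value at 10, 50 and 100 Hz of the older group, and animal 7 was within the younger range at each.

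Set against the other neurons of the same animals, 0 of 37 columns passed, and the smallest exact p of 0.1 was reached by HS_Threshold and HS_Quotient, whose meaning the files do not state. The gap between OSMR-positive and other neurons in HS_Threshold was 146.1 in the younger and 56.7 in the older animals, a difference of -89.5 (adjusted p = 1, exact permutation). For HS_Quotient it was 0.335 in the younger and -0.674 in the older animals. For the columns without overlap between ages, the difference of this gap was -0.0291 (input_res), -0.0164 (Input_res_new), -0.766 (APD), -0.0958 (AP_threshhold) and 0.0205 (Sinusscore_new).

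**Figure D5:**
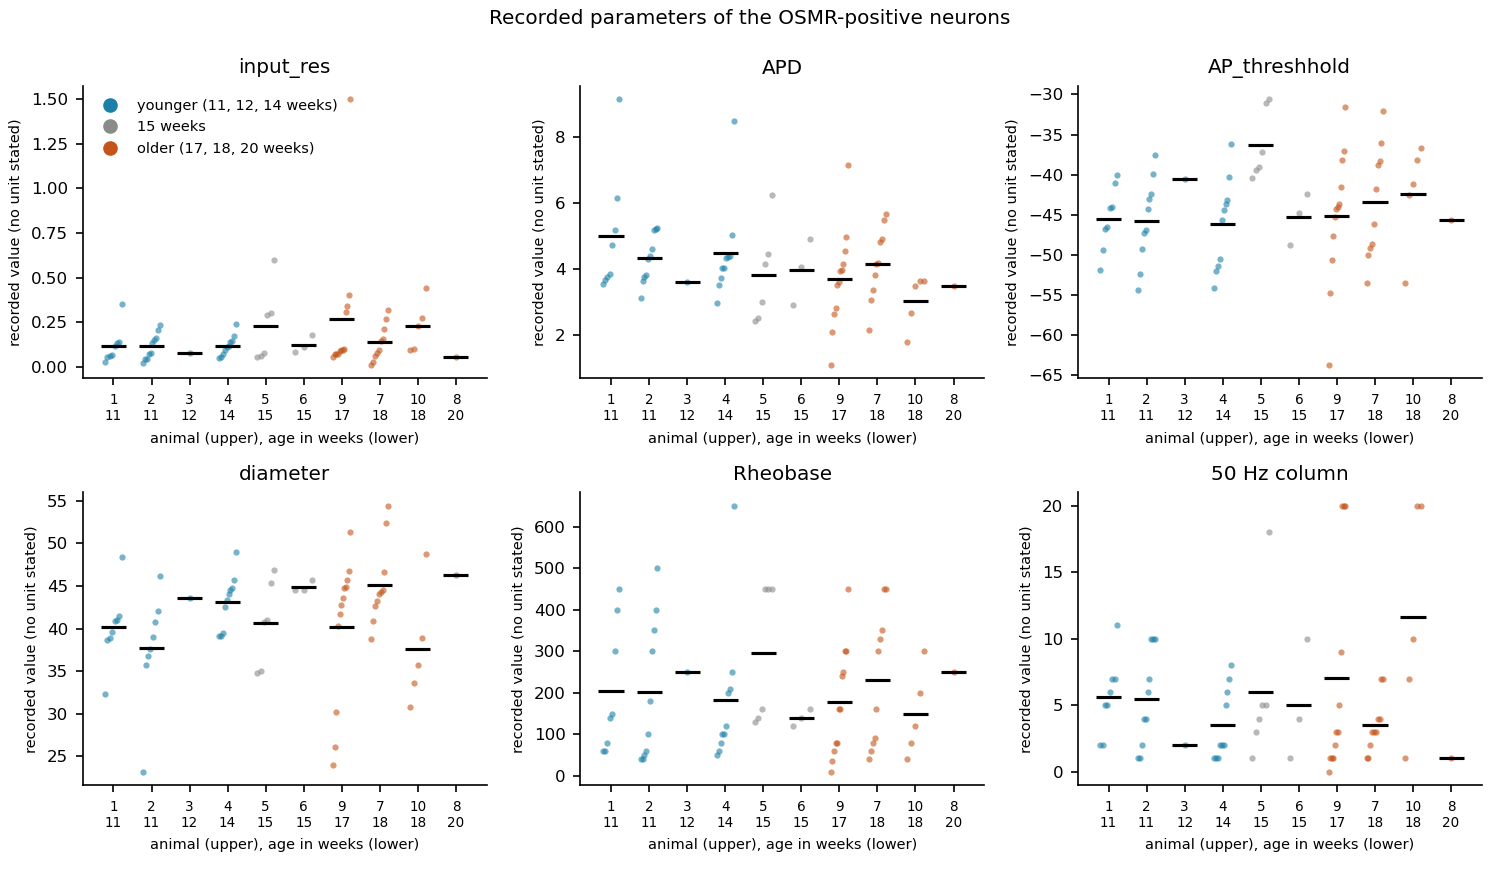
Recorded values of OSMR-positive neurons by animal and age in weeks, in the authors' columns, which state no unit; small points are cells and bars are animal means. Animal means of APD are lower and those of input_res higher in animals 7, 9 and 10 than in animals 1, 2 and 4, while those of diameter, Rheobase and the 50 Hz column overlap.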

How the data were processed

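The deposited gene table holds estimated counts of 30420 genes in 226 cells, made by the authors. For the aligner, the counter and the build, tools and versions were not given in the sources used here. The submitters' processing notes name bcl2fastq 2.20. Of its values above 0, 52.1% were not whole. The deposited cell table holds the authors' recorded (other) values for each cell, without units, and names the animal and age of each cell. Of its 269 lines, 43 belong to no sample used here. Symbols came from a table of gene names that matched 14867 of 30420 identifiers. No sequences are shown.

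Counts of OSMR-positive cells were summed per animal, rounded to whole numbers, filtered with filterByExpr, scaled by TMM and tested with edgeR 4.0.16 (quasi-likelihood, R 4.3.3) with Benjamini-Hochberg adjustment and a threshold of 0.05. The difference between OSMR-positive and other neurons had the animal as a block. Recorded values were averaged per animal and compared by an exact two-sided permutation test (scipy 1.17.1). The code was tested on simulated data. Smart-Seq2 carries no molecular identifiers and does not mark the strand, so intervals cover counting error only, and overlapping genes on opposite strands cannot be told apart.

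Named genes were those called, the 6 with the smallest p in each direction under 3 conditions, and a set of markers, receptors and channels. The conditions were a symbol, a mean of at least 3 on the log2 CPM scale and no overlap between the animals of the groups. The same was done for the difference between neuron kinds. The members and the 38 gene lists were chosen with earlier results of these data known. Alternatives were DESeq2 1.42.0 and its size factors, limma 3.58.1 on the mean over cells of log2(CPM + 1), no filter, at least 1 or 3 cells per animal, OSMR thresholds of 25 and 100 CPM, 1 day in culture only, mean day as a covariate, the 15-week animals as a further group, a slope per week and leaving out each animal. Those chosen after seeing the data were thinning to equal totals, leaving out cells rich in macrophage or endothelial genes and requiring IL31RA.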

Additional observations from a re-analysis of the deposited data

Results flagged for a closer look

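A single animal stood far from the rest of its group in 5 of 86 sets of 4 animal values, and chance flags about 1 in 20. TAC1 was at 10187 CPM in the OSMR-positive neurons of animal 1, against 7457 to 7629.9 CPM in the other younger animals. SDC2 was at 61.2 CPM in animal 10, against 6.61 to 12.4 CPM in the other older animals. LAPTM5 was at 0.0452 CPM, from 1 count, in animal 4 and at 0 in the other younger animals. With the others at 0 any level above 0 is flagged, so the rate of 1 in 20 does not apply to LAPTM5. Animal 3, which has 1 OSMR-positive cell, stood apart from the younger group for CYSLTR2, at 176.4 CPM against 55.9 to 65.4 CPM, and for input resistance, at 0.074 against 0.113 to 0.119.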

How the results depend on the processing

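The call of SHISAL1 was kept in every leave-one-out fit. The fit called 0.0226% of genes, with 0.017% higher and 0.00565% lower. DESeq2 called 0.164% (29 genes, 4 shared), with 0.113% higher and 0.0509% lower. Limma on means of cells called 0.0735% (13 genes, 3 shared), with 0.0679% higher. Without a filter 0.621% of 27693 genes were called (4 shared), 0.394% higher and 0.227% lower. The share called lower was 0% with OSMR of at least 25 CPM and with mean day as a covariate, and 0.0105% with thinning, where fewer genes were tested. The share called higher was 0.0104% with the 15-week animals as a further group. The 1-day cells, which left out animal 10, and the slope per week gave 0 calls. Leaving out 1 animal gave 0.00538% to 0.0330% in all, 0.00538% to 0.0308% higher and 0% to 0.0110% lower. For the difference between neuron kinds 29 genes (0.0978%) passed without a filter. Depth limits the older sums most.

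These differences, none of which passed, changed sign, and the cause was not tested. Under limma these were IL31RA (-0.50), SCN10A (0.87), GNA14 (0.24), CYSLTR2 (0.30) and ATF3 (0.26). With at least 1 cell per animal they were SCN10A (0.11), SCN11A (-0.41) and ATF3 (0.70). With OSMR of at least 100 CPM they were SCN10A (0.22), GNA14 (0.046), GAP43 (-0.060) and GAL (-0.12), and with at least 25 CPM IL31RA (-0.19), SCN11A (-0.25) and ATF3 (0.17). At 1 day they were SCN9A (0.0062), SCN10A (0.42), ATF3 (0.012) and, between neuron kinds, SMAD1 (-0.28). SCN10A also turned with mean day (0.0053), the slope per week (0.0038), thinning (0.25), without the macrophage- and endothelium-rich cells (0.18) and with IL31RA required (0.16), and IL31RA with the slope (-0.012). Leaving out 1 animal, the values ran from -0.15 to 0.33 for IL31RA, -0.23 to 0.13 for SCN10A, -0.23 to 0.16 for SCN11A, -0.18 to 0.17 for TRPV1 and -0.075 to 0.42 for GAP43.

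Recorded differences turned for Rheobase (38.3) and the 10 Hz column (0.667) with medians over cells, for 4 Hz (-1.64) with at least 1 cell per animal, and for cslow (5.603), RMP (-0.166), 4 Hz (-0.358), 20 Hz (-0.241) and 50 Hz (-0.341) with OSMR of at least 100 CPM. They turned for diameter (-0.307) and 10 Hz (0.451) with at least 25 CPM, and for diameter (-0.320), 4 Hz (-1.70) and 20 Hz (-1.31) at 1 day. Leaving out 1 animal, they ran from -1.47 to 2.33 for diameter, -17.7 to 4.36 for cslow, -33.8 to 7.71 for Rheobase, -1.44 to 4.00 for RMP, -1.92 to 2.54 at 4 Hz, -2.93 to 1.82 at 10 Hz and -1.16 to 2.27 at 20 Hz.

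No paired analysis was possible because an animal has 1 age and the replicate numbers in the labels count cells.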
